A study of Mus musculus with 11 samples.

Results

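The genes described here are 56 developmental transcription factors whose surroundings are largely free of DNA methylation in blood progenitors. They were chosen by name, as regulators of embryonic patterning, out of 49550 genes on chromosomes 1 to 19 and X. Earlier results of these data were known when they were chosen. All 56 could be measured. Each gene was read through a window that ran from 5 kb before to 5 kb after its span in the GRCm38 assembly, and the windows were 11.7 to 106 kb long. Within them lay 11087 of the 1292873 cytosine positions (C positions, the 2 strands of a CpG counted apart) that were covered by at least 10 reads in each of the 10 libraries compared. A window held 41 (Pax8) to 472 (Pax2) such positions. The windows of Zic1 and Zic4 shared 138 positions and those of Dlx1 and Dlx2 shared 8, so these pairs were not independent.

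Methylation had been measured by enhanced reduced representation bisulfite sequencing, in which DNA is cut with MspI and only CpG-rich fragments are read. All mice were C57BL/6 with a floxed Dnmt3a gene, and all had 5 injections of poly(I:C), the inducer of the interferon-responsive Mx1 promoter that drives Cre in the Mx1-Cre line. Cre-negative animals were the controls and Cre-positive animals the knockouts, both at 12 months of age. Cells of 2 bone marrow fractions were sorted: LSK cells (Lin- Sca1+ cKit+, the fraction with the stem cells), with 3 control and 3 knockout libraries, and GMP cells (Lin- Sca1- cKit+ CD34+ FcgR+, granulocyte-macrophage progenitors), with 2 and 2. A further GMP library, 352, has labels that disagree on its genotype and was kept out of every comparison. Mx1-Cre acts in interferon-responsive cells in general, and the tables do not show what share of cells had lost Dnmt3a. Marker genes of the sorted fractions could not be checked, because methylation tables carry no expression. Nothing in the labels ties each library to its own animal, so p-values measure the spread between libraries, which may be technical.

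Dnmt3a is one of the enzymes that add methyl groups to unmethylated CpG sites. Genes for patterning transcription factors are known to lie in wide CpG-rich valleys of low methylation that are covered by Polycomb proteins in cell types where the gene is silent, and Dnmt3a is known to act on the borders of such valleys in blood stem cells. The families included T-box, forkhead, Pax, Sox, Zic, GATA, Iroquois, basic helix-loop-helix and homeobox factors, most of which act in limb, heart, gut or nervous system and have no known part in making granulocytes.

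The RefSeq table of this build held promoter sequences, from 250 bases before to 50 after a start, for 37 of the 56 genes. It gave 48 promoters for them, with a median of 22.5 CpG against 7 in 32571 promoters of other genes. At least 3 C positions were measured in 32 of the 48, and 31 of those 32 had a control LSK level under 10%. The exception was a start within Tbx1, a T-box factor of the pharyngeal arches and the cardiac outflow tract. The 250 bases before that start (chr16:18588900-18589149, minus strand) are printed with those before the starts of Foxc1 (chr13:31806396-31806645, plus strand), a forkhead factor of mesoderm and eye, Dlx2 (chr2:71546755-71547004, minus strand), a homeobox factor of forebrain and branchial arches, and Foxd3 (chr4:99656049-99656298, plus strand), a forkhead factor of neural crest. They set the 1 promoter above 10% beside 3 low ones, and were chosen after their values were seen. Each runs 5′ to 3′ along the gene, with every CpG in capitals.
Tbx1: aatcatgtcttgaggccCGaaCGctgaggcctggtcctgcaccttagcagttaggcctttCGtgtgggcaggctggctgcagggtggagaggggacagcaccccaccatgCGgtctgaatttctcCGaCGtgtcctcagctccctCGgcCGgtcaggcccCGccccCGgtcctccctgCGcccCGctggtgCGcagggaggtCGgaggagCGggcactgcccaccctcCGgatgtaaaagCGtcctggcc
Foxc1: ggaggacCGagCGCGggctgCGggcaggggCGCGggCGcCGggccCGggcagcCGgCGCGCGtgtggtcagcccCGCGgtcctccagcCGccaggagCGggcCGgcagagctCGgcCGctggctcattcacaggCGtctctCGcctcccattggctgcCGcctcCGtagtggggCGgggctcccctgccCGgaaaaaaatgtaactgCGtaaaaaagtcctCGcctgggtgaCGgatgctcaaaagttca
Dlx2: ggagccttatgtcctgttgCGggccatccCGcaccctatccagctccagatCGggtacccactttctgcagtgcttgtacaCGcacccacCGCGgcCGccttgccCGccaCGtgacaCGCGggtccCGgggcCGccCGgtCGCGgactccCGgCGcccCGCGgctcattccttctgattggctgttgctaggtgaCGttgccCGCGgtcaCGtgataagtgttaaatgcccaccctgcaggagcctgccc
Foxd3: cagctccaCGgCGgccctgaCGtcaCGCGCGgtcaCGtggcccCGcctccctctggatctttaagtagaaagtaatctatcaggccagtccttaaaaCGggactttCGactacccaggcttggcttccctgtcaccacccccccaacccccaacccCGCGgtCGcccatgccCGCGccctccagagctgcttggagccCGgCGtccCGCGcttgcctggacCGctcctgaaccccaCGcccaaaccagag

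The Tbx1 sequence holds 17 CpG and had 14 measured C positions. Its level was 30.4, 35.9 and 37.9% in the control LSK libraries and 14.2, 26.3 and 14.3% in the knockouts. In GMP it was 34.0 and 25.3% in controls and 14.5 and 19.7% in knockouts. All knockouts lay below all controls of their cell type. The Foxc1 sequence, with 29 CpG and 41 C positions, had a control LSK level of 0.303% ± 0.048 (SD, n = 3) and a knockout level of 0.146% ± 0.033. In GMP it read 0 and 0.0150% in controls and 0.0214 and 0.0428% in knockouts, the opposite direction. The Dlx2 sequence, with 24 CpG and 20 C positions, stood at 1.27% ± 0.31 and 0.917% ± 0.248. The Foxd3 sequence, with 21 CpG but only 6 measured C positions, stood at 7.65% ± 1.90 in control and 6.22% ± 1.81 in knockout LSK, and at 16.2% ± 8.7 in control and 7.62% ± 3.38 in knockout GMP (SD, n = 2). The LSK groups overlapped at the Dlx2 and Foxd3 sequences. All 4 were lower in the LSK knockout mean, but of the 32 measured promoters only 17 were, and 22 in GMP.

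Most windows of the 56 genes were low in methylation. In control LSK the median window stood at 4.46%, against 28.5% over 27940 other genes, and 48 of the 56 windows were under 10% and 8 at 10% or more. The highest control LSK windows were those of Tbx4 (36.0% ± 0.6, SD, n = 3), a hindlimb and lung factor, Pax8 (32.8% ± 1.2), a thyroid and kidney factor, Wt1 (15.9% ± 0.2), a kidney and gonad factor, Pax3 (14.6% ± 0.3), a muscle and neural crest factor, and Pax7 (14.2% ± 0.04), a factor of muscle stem cells. The lowest were those of En2 (1.26% ± 0.18) and Zic2 (1.70% ± 0.05), both of the developing brain, Sox9 (1.72% ± 0.59), of cartilage, Isl1 (2.23% ± 0.20), of motor neurons and heart, and Sox17 (2.38% ± 0.16), of endoderm and vessels. The mean over the 56 windows was 6.41, 6.50 and 6.51% in the control LSK libraries and 5.58, 5.44 and 5.13% in the knockouts. In GMP it was 7.38 and 7.33% in controls and 6.01 and 6.21% in knockouts. In both cell types each knockout library lay below each control library. The median window over all genes separated too, at 27.9, 29.0 and 28.7% in control and 26.9, 27.3 and 27.3% in knockout LSK. In GMP that median was 27.6 and 27.7% in controls and 26.6 and 26.8% in knockouts. Library 352 had a mean of 5.71% over the 56 windows, and its level was below both GMP controls in 52 of the 56 windows. Its median window over all genes, at 25.8%, was also below both GMP controls.

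**Figure D1:**
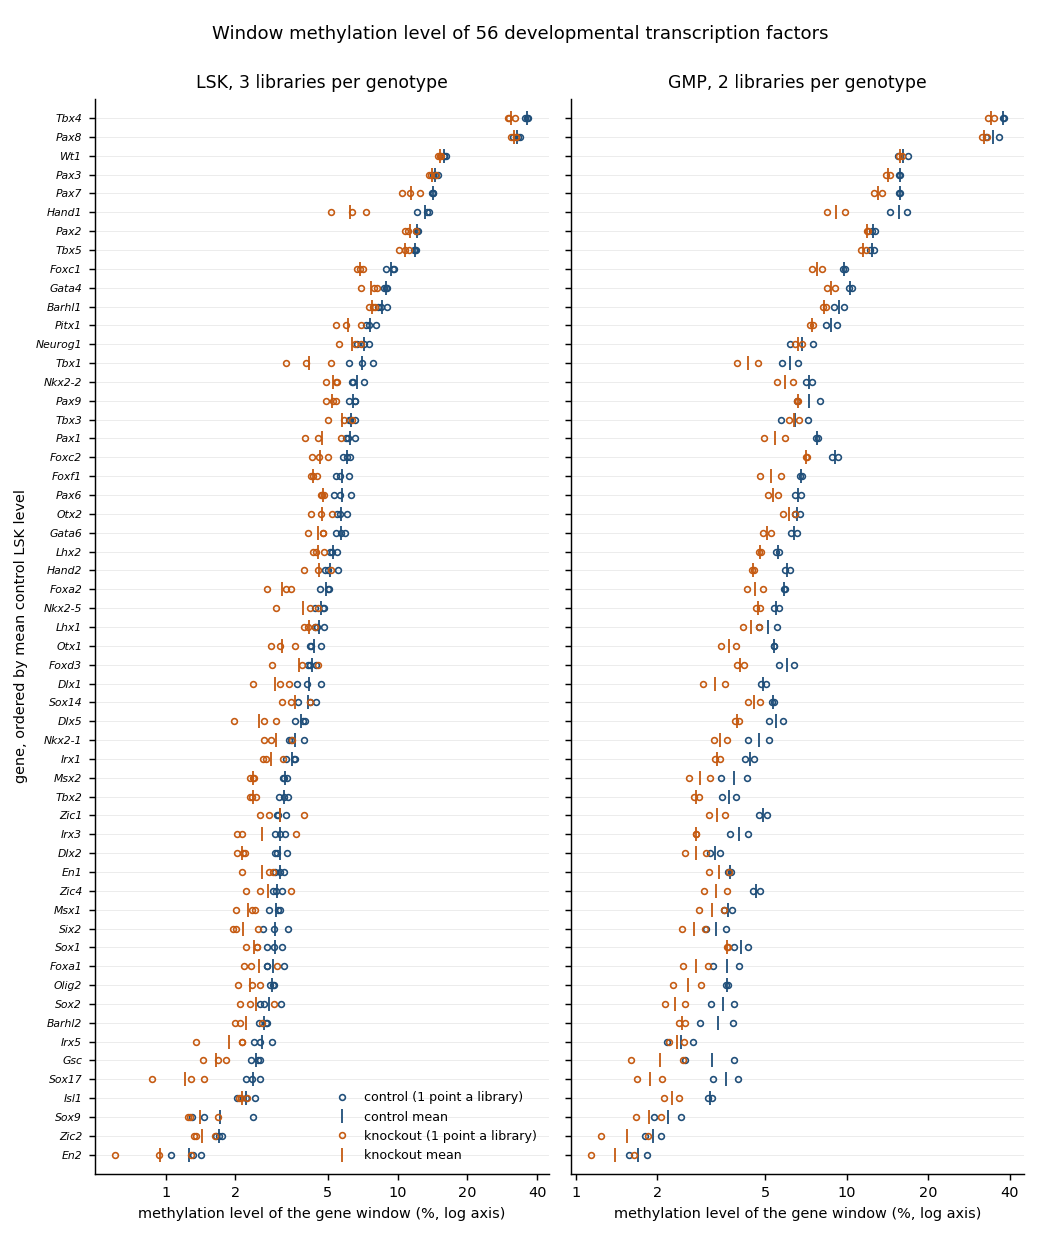
Methylation level of the window of each of the 56 genes in every library of known genotype, LSK on the left and GMP on the right; the horizontal axis is the level in percent on a log axis, open circles are libraries and vertical ticks are group means. The knockout mean lay left of the control mean for all 56 genes in both panels, with the widest gap at Hand1 (13.1 to 6.25% in LSK).

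In LSK cells, knockout windows were lower in mean in 56 of 56 genes, by 0.009 (Zic1) to 6.82 (Hand1) percentage points, and in 20382 of all 27996 genes. The fall passed the test in 21 members and no member was called higher. The test was a quasi-binomial model of the library level with a dispersion moderated by limma, and a window counts as called at an adjusted p under 0.05 over all 27996 genes with enough positions. By the same rule 11.3% of all genes were called lower, so the members were called lower more often than genes at large, at 21 of 56. Every knockout lay below every control in 36 of the 56 windows, against 29.5% of all genes. The median difference was -0.81 points for the 56 genes and -0.48 for all genes. As a share of its control level the median window lost 18.2%, against 2.06% over all genes, whose levels were higher.

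Hand1, a helix-loop-helix factor of heart and placenta, had the largest fall. Its window (chr11, 121 C positions) stood at 12.1, 13.7 and 13.4% in the controls and at 7.28, 6.34 and 5.14% in the knockouts, with an adjusted p of 0.005. The groups were far apart, and the fall was 52.2% of the control level. Tbx4 read 35.4, 36.0 and 36.5% in controls and 32.2, 30.3 and 29.8% in knockouts (adjusted p = 0.009). Tbx1 read 6.16, 7.83 and 7.04% in controls and 4.03, 5.15 and 3.29% in knockouts (adjusted p = 0.038). These 3 windows also had no overlap between the groups.

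Pax7 read 14.2, 14.2 and 14.1% in controls and 12.5, 10.5 and 11.4% in knockouts (adjusted p = 0.023). Foxc1 read 8.92, 9.62 and 9.53% in controls and 7.10, 6.90 and 6.69% in knockouts (adjusted p = 0.004). In both genes the controls were within 1 point of each other and stood above all knockouts. Foxa2, a pioneer factor of endoderm, fell from 4.90% ± 0.24 to 3.17% ± 0.39 (adjusted p = 0.010).

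Smaller falls that passed the test were those of the forkhead genes Foxf1 (by 1.42 points), of lung mesenchyme, and Foxc2 (by 1.41), of lymphatic vessels. Among homeobox and Pax genes, Nkx2-2 of ventral neural tube and islets fell by 1.40 points, Pax9 of teeth and pharyngeal pouches fell by 1.22 and Otx1 of forebrain fell by 1.18. Sox17 fell by 1.17 points, which was 49.1% of its control level, and Gata6, a GATA factor of endoderm and heart, fell by 1.15. Tbx5 of forelimb and heart fell by 1.14 points and Pax6 of the eye fell by 0.99. The other called windows were Dlx2, Msx2, Tbx2, Gsc, Lhx2 and Msx1, with falls of 0.73 to 0.97 points. Of the 10 largest differences, those of Pitx1 (-1.51, adjusted p = 0.079), a hindlimb factor, and Pax1 (-1.47, adjusted p = 0.0999), of the vertebral column, did not pass.

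By family, windows were called lower in 4 of 5 T-box genes, 4 of 6 forkhead genes, 3 of 7 Pax genes and 7 of 20 homeobox genes outside the Pax and Iroquois families, beside 11.3% of all genes. So were 1 of 5 Sox genes, 1 of 2 GATA genes and 1 of 4 helix-loop-helix genes. None of the 3 Iroquois and 3 Zic genes passed the test. Among 73 other developmental factors of the same kind, 23 were called lower and 0 higher, with 69 lower in mean and a median difference of -0.58 points. As a share of the control level their median window lost 14.0%. Of 16 Polycomb subunit genes 2 were called lower, a share (12.5%) near that of all genes, with 11 lower in mean and a median of -0.45.

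The count of 21 depended on how positions were weighted and on single libraries. The counts that follow are of members only, and the 11.3% of all genes belongs to the fit without these changes. When reads were pooled, so that deeply covered positions weighed more, 1 of the 56 windows was called, although the median difference was -0.79 points. It was 9 without control 1326 or without control 1331, 10 without control 1330 or without knockout 1334, 22 without knockout 1327 and 25 without knockout 1333. Library 1333 stands apart: 120021 positions passed 10 reads there and in no other assigned library, where such private positions numbered 6431 to 30203. Windows called with each library left out in turn were those of Dlx2, Foxa2, Foxc1, Foxf1, Hand1, Msx2, Tbx2 and Tbx4.

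In GMP cells the knockout window was lower in mean for all 56 genes too, by 0.073 (Tbx3) to 6.43 (Hand1) points, with a median of -1.12 against -0.38 over all genes. Over all genes 19950 of 27996 were lower in mean. No member passed the test, although 38 had an unadjusted p under 0.05, as did 4275 of all genes. With 2 libraries a group, only 3 of 27996 genes (0.0107%) were called lower at all. The smallest adjusted p among the 56 was 0.108. Among the members a limma fit of logit levels called 0 and pooled reads called 1, with no share over all genes given for these fits. Both knockouts lay below both controls in 43 of 56 windows, against 39.1% of all genes. Of these, Pax3 and Barhl2 lie in 5-Mb stretches where many positions were covered in GMP libraries of only 1 genotype. There were 3 control-only and 59 knockout-only positions around Pax3, and 43 and 136 around Barhl2, and the cause was not tested.

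The 3 largest GMP differences were at genes called in LSK. Hand1 read 16.7 and 14.5% in controls and 8.44 and 9.88% in knockouts. Tbx4 read 37.6 and 38.0% against 33.2 and 34.9%. Pax7 read 15.7 and 15.8% against 12.6 and 13.5%. In these 3 genes the knockouts lay below the controls without overlap. Pax8 differed by -2.34 points and Pax1 by -2.33. Pax8's controls were 36.5 and 32.6% and its knockouts 31.6 and 32.9%, which overlapped.

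Whether the knockout difference itself differed between GMP and LSK was tested as an interaction of cell type and genotype. It was called in 0 of 56 windows and in 0 of all 27996 (0%), and in 0 members with pooled reads. Of the members, 2 had an unadjusted p under 0.05, Isl1 (0.019) and Dlx2 (0.037), against 1587 genes in all. A GMP difference that misses the threshold is therefore not shown to be smaller than the LSK difference.

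The valleys themselves stood slightly higher in control GMP than in control LSK. The mean was higher in 53 of 56 windows, by a median of 0.81 points, while the median over all genes was -0.12. The difference passed the test in 7 windows, all higher in GMP, against 0.654% of all genes. They were Foxc2 (6.04 to 9.05%), Zic1, Foxd3, Zic4, Pax1, Pax7 and Gata4, a heart and endoderm factor, with rises of 1.44 to 3.01 points. Among the 73 other developmental factors, 61 were higher in mean in GMP and 12 lower, with a median of 0.46 points. Of those 73, 8 were called higher and 0 lower. The 7 became 0 without control LSK 1331, without control GMP 346 or without control GMP 349, and 1 without control LSK 1330. With pooled reads 4 members were called, of which 1, Foxc2, was among the 7, and no share over all genes is given for that fit. The cell types were also sequenced to different depth, a median of 85 to 103 reads a position in LSK and 50 to 59 in GMP. All GMP libraries listed 1226 to 1326 positions on chromosome Y, against 211 and 212 in control LSK 1330 and 1331 and 1470 in 1326. Control LSK 1326 had a mean over the 56 windows of 6.41%, beside 6.50 and 6.51% in 1330 and 1331. Cell type, depth and the set of libraries cannot be told apart here, and the chromosome Y counts differ with them in part.

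Each C position was also put in a zone by its mean level in the controls of the other cell type, which did not enter the comparison. Zones were set by level alone, so an edge position need not lie at the border of a valley. Interior positions were under 10%, edge positions from 10 to under 80%, and outer positions at 80% or above. For the LSK comparison 83.3% of the members' positions were interior, 14.6% edge and 2.10% outer. Over all positions elsewhere the shares were 61.0, 8.78 and 30.2%. A zone of a gene was tested where it held at least 5 positions.

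**Figure D2:**
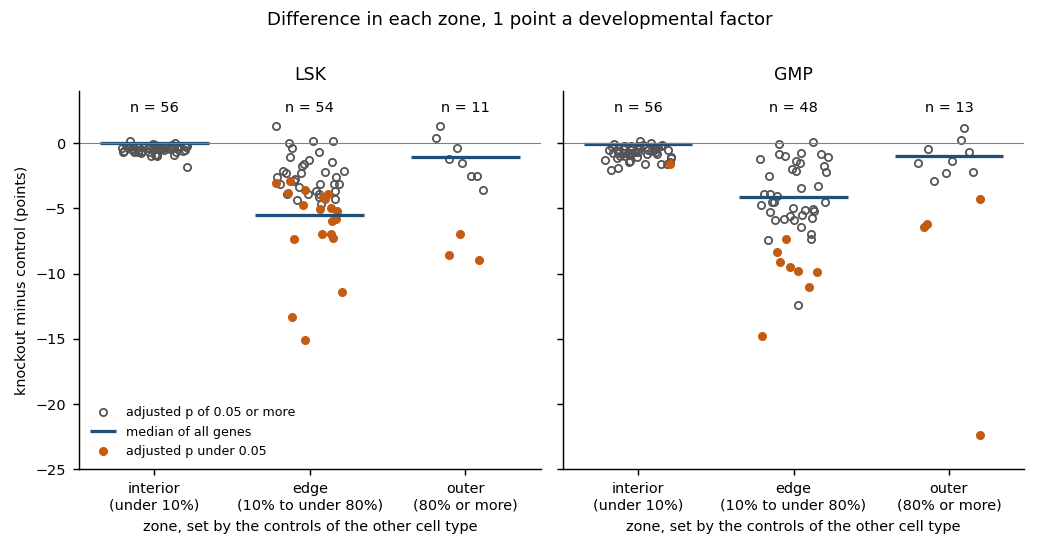
Knockout minus control difference in percentage points for each of the 56 genes in each zone, LSK on the left and GMP on the right; filled points passed an adjusted p of 0.05, n is the number of genes with at least 5 positions in that zone, and the bar is the median over all genes. Called edges ran from -2.93 (Sox17) to -15.05 points (Hand1) in LSK, and the largest interior difference was -2.07 points (Pax8 in GMP, not called).

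At the edges in LSK, 50 of 54 members were lower in mean and 4 higher (Pax8, Sox2, Barhl2 and Zic1), and 20 were called lower and 0 higher. The share called is close to the 37.7% of all edge zones that were called lower. The median difference was -3.45 points for members and -5.53 for all genes, from control medians of 14.7 and 45.1%. As a share of the control level the median member edge lost 23.6%, and the median edge of all genes lost 14.3%. Edges of the other developmental factors were near the members, with a median loss of 20.9% from a control median of 13.9%. Of their 63 edges 24 were called lower. Averaged over all 56 genes' edge positions, the level was 17.3, 17.9 and 17.6% in controls and 13.9, 13.1 and 12.6% in knockouts, without overlap. Edge positions elsewhere did not overlap either, at 47.4, 47.7 and 47.3% in controls and 43.1, 40.6 and 41.3% in knockouts.

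Hand1's edge positions (47) read 24.4, 28.6 and 27.6% in controls and 14.1, 11.5 and 9.82% in knockouts. Tbx1's (51) read 26.9, 32.3 and 29.1% in controls and 15.03, 19.8 and 13.5% in knockouts. Foxc1's (41) read 18.0, 21.1 and 22.5% in controls and 10.1, 8.47 and 8.67% in knockouts. In all 3 every knockout lay below every control.

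Next came Pax7 (-7.33 points), Tbx4 (-7.26), Nkx2-2 (-6.97) and Gsc (-6.94), a homeobox factor of the gastrula organizer. Otx1 fell by 5.93 points, Lhx2 of eye and forebrain fell by 5.81, Foxf1 fell by 5.21, Pax9 fell by 5.06 and Foxa2 fell by 4.95. Dlx5 of limb and jaw fell by 4.77, Wt1 fell by 4.25 and Dlx1 of forebrain fell by 4.12. The 5 smaller falls completed the 20, at Tbx2, Dlx2, Gata4, Msx1 and Sox17. Of the 20, 16 were also called as whole windows. The count was 12 without control 1326, 11 without control 1330 and 13 without control 1331, and Hand1, Tbx1, Foxc1, Pax7, Tbx4, Nkx2-2, Otx1, Foxf1, Foxa2 and Dlx5 were called with each library left out.

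The members' interior positions were lower in the knockouts by fractions of a point. Averaged over interior positions, the members stood at 2.10, 2.18 and 2.16% in control LSK and 1.75, 1.83 and 1.52% in knockout LSK, without overlap. Interior positions elsewhere stood at 0.88 to 1.26% in controls and 0.74 to 1.24% in knockouts, with overlap. The interior was lower in 55 of 56 members (median -0.37 points, all genes -0.02), but the difference passed the test in none, with 18 at an unadjusted p under 0.05, as had 2148 of 19037 interiors of all genes. Over all genes 0.0315% of interiors were called lower. A limma fit of logit levels also called 0, and with an interior limit of 20% the model called 2. The largest interior differences were those of Tbx4 (-1.87 points), Sox17 (-0.99) and Foxc2 (-0.95).

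Few members had outer positions, and of the 11 with enough of them 3 were called lower in LSK, against 8.85% of all genes. Foxc1 read 92.3, 93.0 and 92.3% in controls and 86.1, 83.4 and 81.1% in knockouts. Pax7 fell from 87.8% ± 0.9 to 79.2% ± 4.6 (adjusted p = 0.003). Tbx4 fell from 92.0% ± 0.8 to 85.1% ± 3.2 (adjusted p = 0.003). None of the 3 overlapped between groups. A limma fit of logit levels called 1 of them.

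In GMP, edges were called lower in 8 of 48 members and higher in 0, against 8.97% of all genes. The median was -4.87 points, and -4.09 over all genes. Hand1's edge read 37.9 and 33.6% in controls and 19.8 and 22.2% in knockouts (adjusted p = 0.004). Otx1 read 30.6 and 28.7% against 15.5 and 21.7% (adjusted p = 0.036). Foxc1 read 25.4 and 24.9% against 17.7 and 12.9% (adjusted p = 0.019). None of these edges overlapped between groups.

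The other called GMP edges were those of Tbx1 (-9.81 points), Pax7 (-9.50), Sox14 (-9.08), a neural Sox factor, Foxa2 (-8.37) and Tbx2 (-7.37). Of the 8, 7 (all but Sox14) were also called in LSK. The 8 became 0 without knockout 178, 1 without control 346 or without control 349, 4 without knockout 179, 4 with pooled reads and 0 in a limma fit of logit levels.

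The GMP interior was called in 1 member, Sox17, which read 2.97 and 3.55% in controls and 1.61 and 1.77% in knockouts (adjusted p = 0.037), against 0.455% of all interiors. The Sox17 call was lost with any 1 library left out. The mean over the members' interior positions was 2.76 and 2.81% in control and 2.10 and 2.19% in knockout GMP. Interior positions elsewhere were lower in GMP knockouts too, at 0.81 and 0.78% in controls and 0.63 and 0.65% in knockouts. In 4 of 13 genes the outer zone was called lower, at Tbx1 (-22.4 points over 5 positions), Pax7 (-6.46), Foxc1 (-6.20) and Tbx4 (-4.27), against 2.4% of all genes. The 4 became 2 without control 346 or without control 349, 0 without knockout 178, 1 without knockout 179 and 0 in a limma fit of logit levels.

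The level was then followed by distance from the start, taken as the 5′ end of the gene span, and for the 19 genes without a known strand as the end with more C positions. A gene entered a bin where it had at least 3 positions there. In the 500 bases after the start the 49 genes measured stood at 2.80% ± 0.14 in control and 2.20% ± 0.13 in knockout LSK (SD, n = 3). From 3 to 4 kb after the start the 28 genes measured stood at 10.3% ± 0.2 and 7.59% ± 0.60. There 25 of the 28 were lower in the knockout mean, and 2014 of 2908 other genes. Before the start, from 4 to 5 kb away, the 15 genes measured stood at 10.4% ± 0.1 and 9.34% ± 0.49. In LSK the libraries of the groups overlapped in 2 of the 12 bins, the 500 bases before the start and those from 500 to 1000 after it, and in GMP in 0. Over all other genes every knockout library lay below every control library in each bin, in both cell types.

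The same profile over all other genes rose to 58.7% ± 0.1 in control LSK at 4 to 5 kb after the start, where the members were at 7.35% ± 0.04. Close to the start, in the first 500 bases after it, other genes differed by -0.53 points and the members by -0.60. At 3 to 4 kb after it the differences were -2.36 and -2.69 points. In GMP at the same 3 to 4 kb the members stood at 12.6% ± 0.2 in control and 9.63% ± 0.56 in knockout (SD, n = 2), a difference of -2.97 points, and other genes differed by -1.59.

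**Figure D3:**
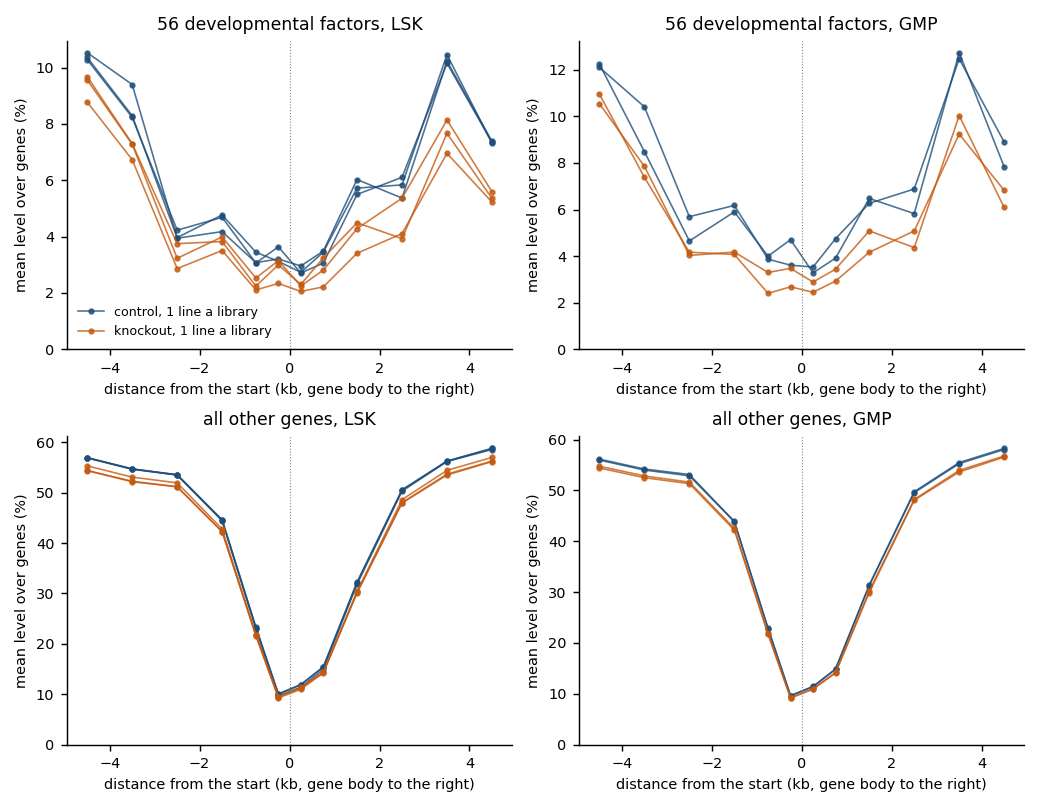
Mean methylation level in percent by distance from the gene start in kb, negative upstream, for the 56 genes in the upper row and all other genes in the lower row, LSK on the left and GMP on the right; each line is a library and the vertical axes differ between rows. In the members no group mean exceeded 12.6% in any bin, and the knockout lines ran below the control lines in 10 of 12 LSK bins. For all other genes the knockout lines ran below the control lines in every LSK bin.

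A valley was defined in each library as the stretch around the start in which the running mean over 5 C positions stayed under 20%, and 47 of the 56 genes had one of at least 5 positions in every library. Hand1, Tbx4, Pax8, Gata4, Sox17, Nkx2-1, Nkx2-2, Otx2 and Dlx5 did not. Valleys were sought only around the start, so these genes can still hold low stretches elsewhere in the window. In Hand1 71 of 121 positions were interior, at 1.34% in control LSK, and in Nkx2-2 180 of 219, at 1.84%. Edge zones of Hand1, Tbx4 and Nkx2-2 were called above all the same, since zones do not depend on the start. The median width in control LSK was 8.37 kb, against 0.977 kb over 9553 other genes. The widest were those of Lhx2 (20765 bp), Zic4 (20140 bp) and Pax3 (18042 bp), and the narrowest those of Neurog1 (1083 bp), Pitx1 (2309 bp) and Hand2 (2466 bp). In 29 of the 47 the valley reached the last position examined on at least 1 side, so its width there is a lower limit. Neurog1, Hand2, Lhx2, Zic4 and Pax3 are among them, so the ranking is of measured widths only.

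The level was also followed across the ends of the valleys, here called valley edges, which are set by place and differ from the edge zones. They came from the controls of the other cell type and were counted only where positions lay beyond them. In LSK the 250 bases inside the edge stood at 4.12% ± 0.29 in controls and 3.03% ± 0.16 in knockouts, over 47 edges of the members. In the 250 bases outside, over 38 edges, they stood at 13.9% ± 0.5 and 10.2% ± 0.6, and 33 of the 38 were lower in the knockout mean. At the edges of other genes the same bin differed by -2.13 points, with 4390 of 6730 lower. From 250 to 500 bases outside, other genes differed by -7.36 points and the members by -3.33, over only 9 edges. From 1 to 2 kb inside they stood at 3.17% ± 0.07 and 2.45% ± 0.13. In GMP the 250 bases outside stood at 20.7% ± 1.1 in controls and 15.6% ± 0.2 in knockouts, over 33 edges. Groups did not overlap in these bins, and overlapped in LSK from 500 to 250 bases inside. At the edges of other genes the LSK groups overlapped in every bin inside the edge and did not overlap in any bin outside it. The GMP groups did not overlap in any bin there. Farther out, only 9 to 11 LSK edges and 4 to 10 GMP edges could be measured, and those bins rest on few genes.

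**Figure D4:**
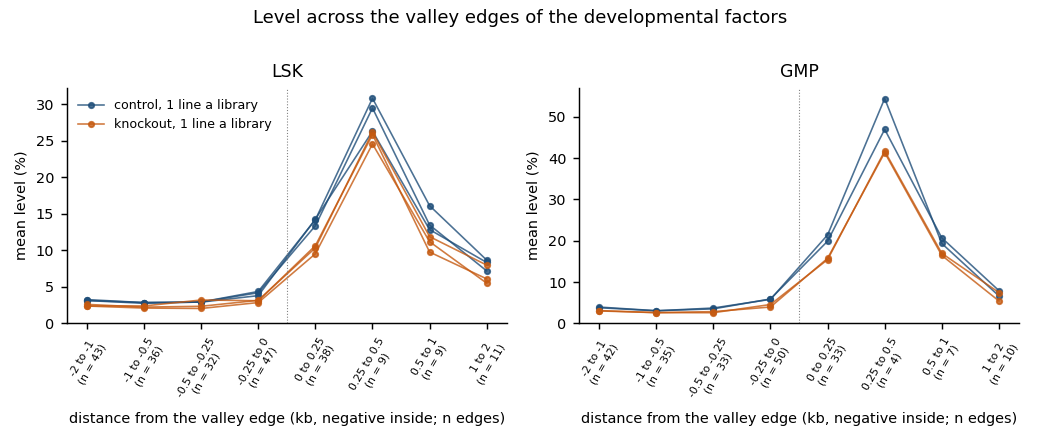
Mean level in percent across the valley edges of the members, LSK on the left and GMP on the right, by distance in kb from the edge with the inside of the valley to the left of the dotted line; each line is a library and n counts the edges in a bin. The LSK knockout lines sat below the control lines just outside the edge (13.9 against 10.2% in the mean), and the bins beyond 0.25 kb hold at most 11 edges.

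In LSK the mean width of a valley was larger in the knockouts for 25 of 47 members, smaller for 10, and within 1 bp for 12. All 3 knockouts were wider than all 3 controls in 7 of 47 members and none were narrower, against 6.44% of all genes wider and 85 of 9600 genes narrower. The 7 were Dlx2, Foxf1, Foxa2, Otx1, Pax6, Pax7 and Lhx2. Some of them barely separated. Lhx2 measured 20758, 20758 and 20780 bp in controls and 20783 bp in each knockout. Control 1331 stood near the knockouts at Pax6 (23732 bp, against 23851 bp in each) and at Otx1 (11779 bp, against 12202, 12202 and 12384 bp). Dlx2 measured 7410, 7410 and 7409 bp in controls and 13239, 13239 and 13238 bp in knockouts. The Dlx2 window is 13.347 kb long, so the knockout valleys took up nearly all of it and could hardly have measured wider. Foxf1 measured 5736, 5730 and 5737 bp in controls and 9726, 9607 and 10003 bp in knockouts. Both were called by limma on the log2 of the width plus 100 bp, at 2 of 47 members against 3.39% of all genes.

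Widths jump between fixed C positions, so the test of a width has little spread to work with. Of the 365 LSK width calls over all genes, 140 were in genes with no spread in either group. When genes with no spread in either group were left out, limma still called 2 members. That alternative was chosen after seeing the data. Neither call was kept with a valley limit of 10 or 30% or a running mean over 9 positions. Dlx2 had the same width in both groups at 30%, and the log2 change of Foxf1 was 0.01 at 10%, against 0.76. The Foxf1 call was also lost at a coverage minimum of 20. The count of 2 became 4 without control 1326, knockout 1327 or knockout 1333, and 5 without control 1331. Foxa2 (3073, 3073 and 5177 bp in controls, 5217, 10733 and 10733 bp in knockouts) and Pax7 (6174, 7715 and 6163 bp, then 7726, 19793 and 24630 bp) did not pass.

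In GMP, 12 of 47 members were wider in both knockouts than in both controls and 1, Pax7, was narrower, against 13.9% of all genes wider. Some of the 12 differed by little, such as Isl1 (8468 and 8468 bp in controls, 8480 and 8498 bp in knockouts). Limma called 2 members wider, against 7.02% of all genes. Of the 820 GMP width calls over all genes, 568 were in genes with no spread in either group. Pax2, a kidney factor, measured 10561 and 10679 bp in controls and 19449 and 20091 bp in knockouts. Tbx1 measured 2902 and 2905 bp against 2938 and 2938 bp, a difference of about the distance between neighbouring positions. The Pax2 difference was absent with a valley limit of 30%, where its log2 change was -0.0237. In LSK its controls alone ranged from 9750 to 20112 bp. The count of 2 became 12 without control 346, 15 without control 349 and 8 without knockout 178 or knockout 179, each of which leaves a group with 1 library.

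**Figure D5:**
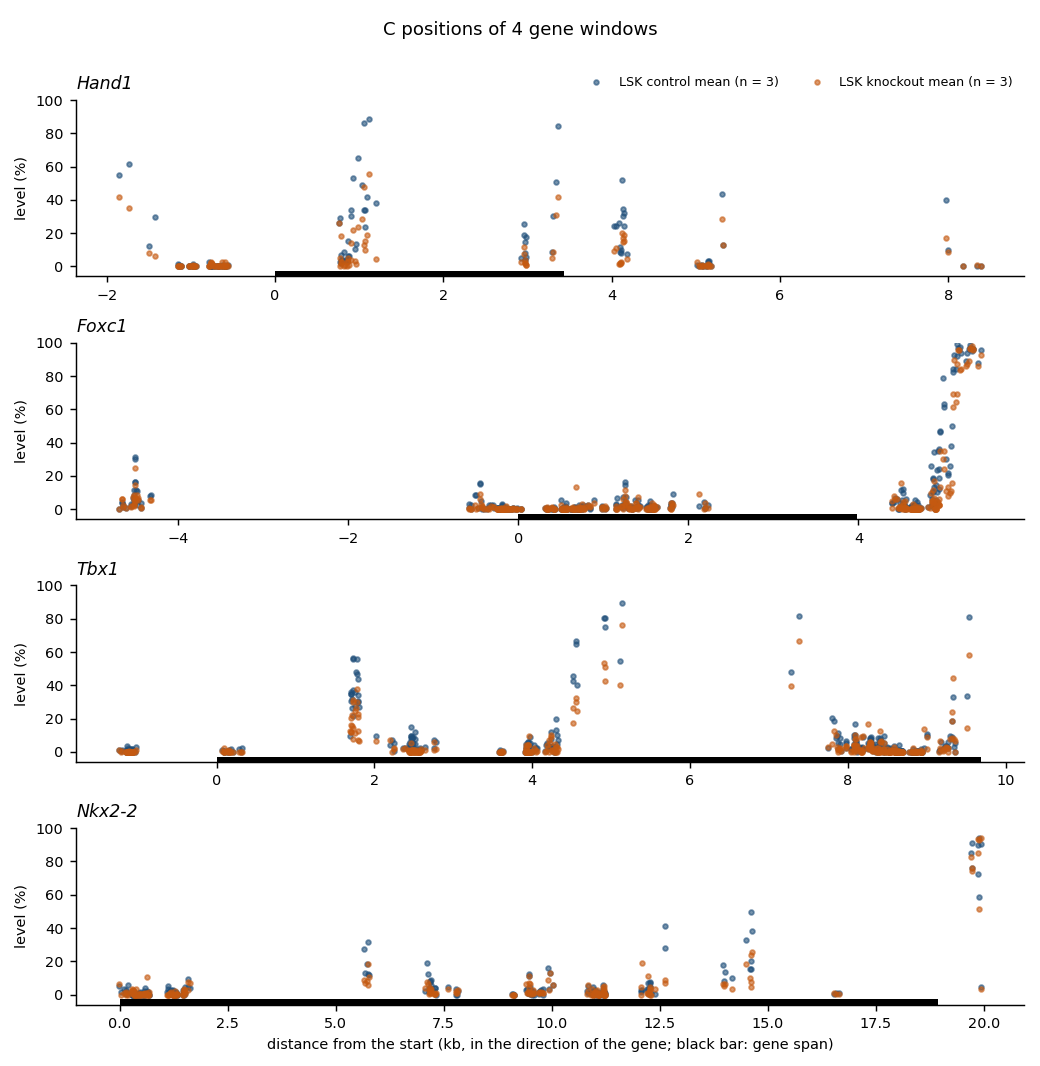
Every measured C position in the windows of Hand1, Foxc1, Tbx1 and Nkx2-2 by distance from the start in kb; points are the mean levels in percent of 3 control (blue) and 3 knockout (orange) LSK libraries and the black bar is the gene span. The low stretches overlie each other and the knockout points sit lower where control points lie between the floor and full methylation. The start of Hand1, whose strand is not known here, is the end of the span with more positions.

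Fixed tiles of 1000 bp with at least 3 positions placed the differences within the windows. The members' windows held 516 tiles, and 24 of them (in 12 genes) were called lower in LSK and 0 higher, against 3.26% of all 100136 tiles. Of the 24, 16 had a control level between 10 and 80%, out of 90 such tiles, and 8 a level under 10%, out of 396. Over all tiles 12.2% were called lower at 10 to 80% and 1.54% under 10%. Of the 24, 18 overlapped a gene span, as did 362 of the 525 pairs of a gene and a tile. Among the 37 genes of known strand, 2 of 62 tiles centred within 1 kb of the start were called, and 15 of 340 tiles in all.

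The largest fall was in Tbx1 (chr16:18585001-18586000, 5 positions, inside the gene), at 80.4, 73.7 and 73.8% in controls and 63.0, 50.9 and 44.4% in knockouts. Pax7 (chr4:139818001-139819000, inside the gene) read 43.8, 38.7 and 37.3% against 23.0, 18.6 and 16.8%. Hand1 (chr11:57832001-57833000, across one end of the gene) read 25.8, 30.3 and 30.001% against 14.7, 11.1 and 11.9%. In each the highest knockout lay more than 10 points below the lowest control.

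Tbx2, a T-box factor of heart and limb, fell by 17.7 points in a tile outside its span. Otx1 fell by 16.7 points in another outside the gene, Pax7 fell by 15.5 and Hand1 fell by 14.1 in further tiles inside the genes, and Nkx2-2 fell by 13.7 and by 9.53. Foxa2 fell by 12.0 points in a tile centred 3468 bp downstream of its start. Tbx4 fell by 8.13 points in the tile at its start (chr11:85886001-85887000), where 27 positions read 24.1, 23.9 and 24.5% in controls and 16.7, 16.8 and 14.6% in knockouts. Further tiles in Hand1 (by 7.93), in Tbx1 at the start whose sequence is printed above (chr16:18588001-18589000, by 7.78), in Pax1 (by 7.13) and upstream of Pax7 (by 6.88) also fell. The tile centred 4855 bp downstream of the Foxc1 start, with 109 positions, fell from 24.2% ± 1.3 to 17.7% ± 0.6 (adjusted p = 0.002). The 24 became 8 without control 1326, control 1331 or knockout 1334, 5 without control 1330, 2 in a limma fit of logit levels and 12 with a prior from tiles between 5 and 95%.

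In GMP 6 of the 516 tiles were called lower and 0 higher, against 0.645% of all tiles. They lay in Foxa2 (from 37.0 to 20.1% in mean, the same tile as in LSK), in 2 tiles of Hand1 (both tiles also called in LSK), in the flank of Tbx4, in Irx3 of heart and neural tube, and upstream of Lhx1 of kidney and head organizer. The first of these Hand1 tiles (chr11:57832001-57833000) read 40.8 and 31.4% in controls and 20.8 and 20.3% in knockouts. All 6 calls were lost with any 1 library left out, and in a limma fit of logit levels.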

How the data were processed

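Enhanced reduced representation bisulfite sequencing was done on sorted bone marrow cells, and the authors deposited 1 table of C positions per library. Per the file headers, a row holds the coverage of a position as a read count, then its percent of C and of T. Bismark, mm10 and GRCm38 are named, without versions, in the submitters' processing notes. Every deposited position has at least 10 reads. The coverage summed over C positions was 157.4 to 181.1 M (mega) in LSK libraries and 95.4 to 109.7 M in GMP libraries. A read counts once at each position it covers, so these sums are not numbers of reads. Reads carry no molecular identifiers, so depth limits counting error only.

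From these tables the mean percent over positions was computed per gene window, zone and 1000 bp tile, each position counted once. Knockouts were compared with controls by a quasi-binomial model weighted by coverage, with dispersions moderated by limma 3.58.1 in R 4.3.3 and Benjamini-Hochberg adjustment over all features. Widths were fitted by limma on log2(width + 100 bp). The scripts were tested on simulated data in which windows at middle to high levels were lowered. Windows as low as those of most members were not lowered there, and simulated widths varied smoothly, without jumps between positions. The simulation therefore does not show how well the tests work at such low levels.

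The genes and lists were chosen with earlier results of these data known. Genes named singly are those called in a comparison (at most the 15 largest differences), the 10 largest LSK and 5 largest GMP window differences, the 5 highest and 5 lowest control LSK windows, and the 3 widest and 3 narrowest valleys. Genes named beyond this rule were chosen after their values were seen. Library 352 was left out because its title and genotype label disagree. Starts came from RefSeq strands for 37 genes and from the end with more positions for 19. Alternatives were coverage, flank, weighting, zone and valley limits, the prior, a logit fit, and each library left out.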

Additional observations from a re-analysis of the deposited data

How the results depend on the processing

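The members' median LSK window difference stayed between -0.70 and -0.89 points under every alternative run. In GMP it was -0.90 with pooled reads. No paired analysis was possible because the groups share no replicate numbers. The counts given here are of members only, without the share of all genes called under the same setting. With pooled reads the called counts were 1 LSK window, 1 GMP window, 4 GMP edges and 4 windows higher in GMP controls. A minimum of 10 points left 0 LSK windows, 3 LSK edges, 0 LSK outer zones, 9 LSK tiles, 0 GMP interiors, 2 GMP edges and 1 GMP outer zone. With zone limits of 20 and 60%, 2 LSK interiors, 5 LSK outer zones, 0 GMP interiors and 3 GMP edges were called. A limma fit of logit levels called 1 LSK outer zone, 2 LSK tiles and 0 GMP interiors, edges, outer zones and tiles. With the prior taken from features between 5 and 95%, 12 LSK tiles, 0 GMP tiles and 0 GMP interiors were called. At a coverage of 20, 1 LSK width, 5 GMP widths, 0 GMP interiors and 11 windows higher in GMP controls were called. A valley limit of 10% gave 1 LSK width. A limit of 30% gave 4 GMP widths, and so did a running mean over 9 positions, with Pax2 at -0.0237 and -0.00082217 on the log2 scale. Genes whose width varied, an alternative chosen after seeing the data, gave 1 GMP width.

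With each library left out in turn, the counts ranged from 9 to 25 for LSK windows, 11 to 24 for LSK edges, 5 to 31 for LSK tiles and 3 to 5 for LSK widths. They were 0 for GMP interiors and tiles, 0 to 4 for GMP edges, 0 to 2 for GMP outer zones, 8 to 15 for GMP widths and 0 to 7 for windows higher in GMP controls. Except where an alternative tests fewer features or libraries, the cause was not tested. With 2 GMP libraries a group and a median coverage of 50 to 59, GMP calls are the least certain.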

Other observations

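Library 352, whose title and genotype label disagree, had a mean of 5.71% over the 56 windows and 18.1% over the members' edge positions. It lay below both GMP controls in 52 of the 56 windows and above both GMP knockouts in 13. Its median window over all genes, at 25.8%, lay below both GMP controls and both GMP knockouts. At the Hand1 window library 352 read 4.91%, and at the Tbx4 window 31.0%.

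Across the 56 genes, windows with a higher control LSK level had a larger loss in points, with a Spearman rho of -0.63 between the control level and the difference. This is a description over 56 genes that share their libraries, and the control level enters both measures.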
